A study of Drosophila melanogaster with 3 samples.

Results

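The 300 strongest binding intervals of Zen, a homeodomain protein of the early *Drosophila melanogaster* embryo, were described across 3 ChIP-seq libraries. They were selected on signal: intervals of the set kept by the irreproducible discovery rate (IDR), on 6 chromosome arms, the small chromosome 4 among them, were sorted by the signal value that the authors' caller gave each peak. For intervals listed with several summits, the highest value was taken, and the first 300 of 7243 intervals were kept (4.14%). The signal values are therefore a description of the choice and are not tested. All 3 libraries, biological replicates 1, 2 and 3, form a single group. Each came from mixed-sex embryos, 0 to 4 h old and used whole, of a transgenic line in which Zen carries GFP at its C terminus, and the antibody was against GFP. The labels name neither a promoter nor an expression domain for the transgene. Whole embryos pool the dorsal cells that express *zen* with all other cells, and a library of embryos lacking the tag was not analysed here. The lists hold no read counts, so the depth behind each interval is unknown.

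*zen* acts at the dorsal side of the blastoderm, downstream of the BMP ligand Dpp, and is required for the amnioserosa, a squamous extraembryonic tissue. Homeodomain proteins recognise short AT-rich words with a TAAT core. Many enhancers active in the early embryo also hold the word CAGGTAG or shorter forms of it, which Zelda recognises, a maternal factor that opens chromatin as zygotic transcription begins. Promoters of broadly expressed fly genes often carry other words, among them those of DREF and of Motif 1 binding protein.

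Windows of 201 bp around the summits of 12 of the intervals are printed here, because the results turn on the words that they hold. The strongest window overall comes first, then windows chosen among 203 eligible intervals because each holds a word that was commoner in the 300 than in the other IDR intervals, or because it lies at a gene discussed further on (*ph-p*, *ush*, *pnr*, *C15* and *zen*). For GGCGCC these shares were 5.33 and 3.72%, for CAGGTG 8 and 6.29%, and for TAATCC 8.33 and 7.07%. These 3 words were commoner in the strongest 300 of replicates 1 and 2 than in their further intervals, but rarer in those of replicate 3. Capitals mark 9 words on either strand: TAATTA (homeodomain core), CAGGTA (Zelda), TAATCC (Bicoid class), CAGGTG (Snail class), GGCGCC (Mad and Brinker class), TTTATG (Caudal), and 3 further words, TAATGA with TATTAA as well as CTACGCC, which were picked after all words of the 300 had been counted. No window overlapping an annotated UTR was taken, and each is named by the gene with the nearest annotated start, except that *ush* names the gene body it lies in.
Ama, rank 1 (dm6 chr3R:6763061-6763261, plus strand): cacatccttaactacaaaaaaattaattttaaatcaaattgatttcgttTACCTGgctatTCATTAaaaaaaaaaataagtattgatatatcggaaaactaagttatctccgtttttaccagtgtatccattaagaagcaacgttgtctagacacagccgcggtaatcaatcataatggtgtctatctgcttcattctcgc
ph-p, rank 5 (dm6 chrX:2137229-2137429, plus strand): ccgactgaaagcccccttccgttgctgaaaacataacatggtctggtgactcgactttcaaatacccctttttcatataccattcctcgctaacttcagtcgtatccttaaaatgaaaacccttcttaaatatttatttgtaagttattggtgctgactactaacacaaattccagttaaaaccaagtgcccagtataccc
bbg, rank 6 (dm6 chr3L:14452684-14452884, plus strand): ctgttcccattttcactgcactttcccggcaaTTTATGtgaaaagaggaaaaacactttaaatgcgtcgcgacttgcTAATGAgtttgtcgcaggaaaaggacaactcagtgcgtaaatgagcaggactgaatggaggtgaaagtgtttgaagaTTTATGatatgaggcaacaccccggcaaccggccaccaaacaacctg
CHMP2B, rank 10 (dm6 chr3L:5139413-5139613, plus strand): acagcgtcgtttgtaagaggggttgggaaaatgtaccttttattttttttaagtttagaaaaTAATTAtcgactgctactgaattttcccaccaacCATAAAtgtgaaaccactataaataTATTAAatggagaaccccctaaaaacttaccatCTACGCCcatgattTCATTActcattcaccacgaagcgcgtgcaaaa
ush, rank 16 (dm6 chr2L:481003-481203, plus strand): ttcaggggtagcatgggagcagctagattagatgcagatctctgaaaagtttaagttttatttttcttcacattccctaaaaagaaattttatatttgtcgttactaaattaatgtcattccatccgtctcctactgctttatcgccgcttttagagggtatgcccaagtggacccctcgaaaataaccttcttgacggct
tRNA:iMet-CAT-1-3, rank 17 (dm6 chr3L:744505-744705, plus strand): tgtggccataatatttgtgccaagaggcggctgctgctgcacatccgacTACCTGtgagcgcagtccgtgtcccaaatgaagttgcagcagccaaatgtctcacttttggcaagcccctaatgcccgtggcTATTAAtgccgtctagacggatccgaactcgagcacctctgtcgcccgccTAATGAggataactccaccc
lncRNA:CR46125, rank 23 (dm6 chr3R:8467818-8468018, plus strand): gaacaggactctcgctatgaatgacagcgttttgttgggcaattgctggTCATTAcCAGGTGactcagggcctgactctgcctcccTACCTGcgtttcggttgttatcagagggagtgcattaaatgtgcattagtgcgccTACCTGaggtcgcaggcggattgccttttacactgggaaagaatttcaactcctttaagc
Tom, rank 25 (dm6 chr3L:14964909-14965109, plus strand): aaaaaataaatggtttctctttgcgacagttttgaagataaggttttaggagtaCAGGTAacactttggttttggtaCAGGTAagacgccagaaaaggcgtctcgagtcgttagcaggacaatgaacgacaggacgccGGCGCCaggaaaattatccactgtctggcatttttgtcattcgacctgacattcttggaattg
CenG1A, rank 30 (dm6 chr2L:13835357-13835557, plus strand): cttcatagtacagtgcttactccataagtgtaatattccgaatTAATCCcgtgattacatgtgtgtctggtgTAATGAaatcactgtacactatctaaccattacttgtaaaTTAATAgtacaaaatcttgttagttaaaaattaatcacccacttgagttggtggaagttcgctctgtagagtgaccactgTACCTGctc
pnr, rank 36 (dm6 chr3R:16028695-16028895, plus strand): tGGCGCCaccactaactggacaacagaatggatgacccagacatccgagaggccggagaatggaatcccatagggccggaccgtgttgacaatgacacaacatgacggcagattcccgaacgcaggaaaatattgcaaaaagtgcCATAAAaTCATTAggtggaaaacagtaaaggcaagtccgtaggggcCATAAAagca
C15, rank 206 (dm6 chr3R:21506402-21506602, plus strand): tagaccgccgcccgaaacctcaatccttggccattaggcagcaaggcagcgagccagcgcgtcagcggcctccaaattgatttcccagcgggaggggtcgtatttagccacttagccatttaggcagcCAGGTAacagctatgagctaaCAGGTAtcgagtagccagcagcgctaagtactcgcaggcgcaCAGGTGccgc
zen, rank 299 (dm6 chr3R:6754509-6754709, plus strand): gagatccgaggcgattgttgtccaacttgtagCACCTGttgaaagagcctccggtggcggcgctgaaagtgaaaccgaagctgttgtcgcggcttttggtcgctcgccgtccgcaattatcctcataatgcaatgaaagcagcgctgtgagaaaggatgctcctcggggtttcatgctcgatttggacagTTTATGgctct

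The window at *Ama* holds 1 Zelda word and 1 TAATGA. That at *CHMP2B* holds TAATTA with TATTAA as well as CTACGCC. The windows at *Tom* and *C15* hold 2 Zelda words each and no TAATTA. None of the 9 words occurs in the windows of *ph-p* and *ush*, and the window of *zen* has neither TAATTA nor CAGGTA.

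Signal values of the 300 lay between 1442 and 7785 with a median of 1898, against a median of 380 and a highest value of 1441 in the other 6943 IDR intervals. The 300 held 17% of the summed signal of all IDR intervals. The border was not a step. Rank 299 lay 415 bp upstream of *zen*. Rank 300 was intergenic, 16698 bp upstream of the nearest start, that of the noncoding RNA gene *lncRNA:CR44631*. Both had 1441.6, while the first interval outside, nearest to a start of *numb* (rank 301), had 1440.7.

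The strongest interval spanned 1484 bp in introns of *Ama*, which encodes a secreted immunoglobulin-domain protein, 243 bp upstream of an annotated start, and ranked 1, 1 and 7 in replicates 1, 2 and 3. The next lay 200 bp upstream of a start of *px*, a wing vein patterning gene, and ranked 4, 4 and 1. Rank 3 fell 128 bp upstream of *Art3*, an arginine methyltransferase gene, beside the mitochondrial ribosomal protein gene *mRpS10*, with library ranks of 6, 7 and 2. Rank 4 lay 99 bp upstream of *CG14100*, within 2 kb of the body of *ash1*, which encodes a histone methyltransferase, and ranked 5, 11 and 3. An intron of *ph-p*, which encodes a Polycomb complex subunit, held rank 5 with library ranks of 8, 12 and 4. All 5 were therefore among the 12 strongest of every library.

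Ranks 6 and 7 showed another pattern. An interval of 888 bp in an intron of *bbg*, a PDZ-domain scaffold gene, ranked 2, 2 and 78 in replicates 1, 2 and 3. The interval of 1705 bp that lies 1007 bp upstream of *egr*, the fly tumor necrosis factor gene, ranked 3, 3 and 97. At *tRNA:iMet-CAT-1-3*, an initiator tRNA gene, an interval of 1749 bp ranked 7, 5 and 159 (rank 17). All these were high in replicates 1 and 2 and lower in replicate 3. The reverse order held at *mRpL41*, a mitochondrial ribosomal protein gene, where an interval 139 bp upstream of the start ranked 37, 30 and 6 (rank 14). *CHMP2B*, of the membrane-remodelling ESCRT-III complex, ranked 16, 22 and 9 (rank 10), and *Ugalt*, a sugar nucleotide transporter gene, ranked 26, 19 and 8 (rank 11).

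Most of the 300 were found in every library. Summits within 100 bp were present in the lists of replicates 1, 2 and 3 for 299, 299 and 297 of them (99.7, 99.7 and 99%), against 96.6, 95.2 and 95.2% of the other IDR intervals. In each library's own strongest 300, 254, 238 and 223 of them were found (84.7, 79.3 and 74.3%), a mean of 79.4% ± 5.17 (SD, n = 3). All 3 libraries placed 152 in their strongest 300, while 112 were there in 2 libraries, 35 in 1 and 1 in none. The libraries fed the pooled ranking, so this agreement is not independent of the choice. The exceptions without a counterpart are named by the nearest start. Those at *Doc2* (rank 178), a T-box gene of the amnioserosa, and *lncRNA:CR45978* (rank 259) had no matching summit in replicate 3. The summit at *lncRNA:CR44737* (rank 252) had no counterpart in any library. All 3 intervals were listed with 2 summits, and only the strongest summit of an interval was matched. An overlapping interval in the library with its strongest summit elsewhere would therefore have been missed.

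**Figure D1:**
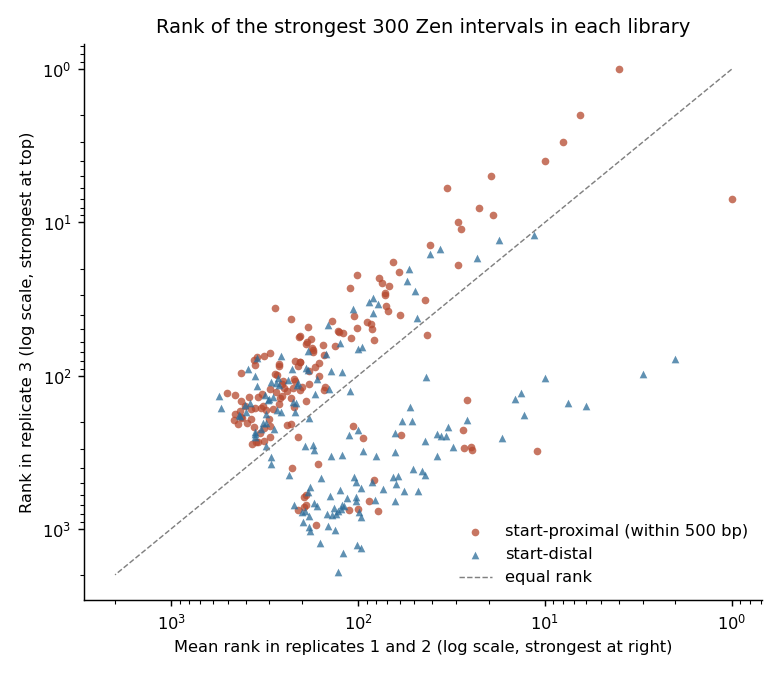
Rank of each of the 300 intervals in replicate 3 (vertical) against its mean rank in replicates 1 and 2 (horizontal), both on log axes with the strongest at the top and right; circles are intervals with a summit within 500 bp of an annotated start and triangles the others. The cloud splits along the line of equal rank, with mostly circles above it and mostly triangles below it; 3 intervals lack a rank in at least 1 library and are not drawn.

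Placement at promoters differed between the libraries. In the IDR set, 146 of the 300 (48.7%) had a summit no farther than 500 bp from a transcript start, against 47.3% of the other IDR intervals. The strongest 300 of replicates 1, 2 and 3 alone had 44.3, 40.3 and 56.3% there, against 46.7, 46.6 and 46.4% of each library's further intervals. The differences of -2.32, -6.25 and 9.94 percentage points averaged 0.459 ± 8.44 (SD, n = 3; exact two-sided sign-flip permutation test, p = 1, smallest possible p = 0.25). When the ranking was taken from the mean library rank without replicate 3, the 300 strongest differed from the others by -5.96 percentage points, and without replicate 1 or replicate 2 by 6.21. With 3 libraries this test cannot fall below 0.25, so no difference between the 300 and the rest could pass it.

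Within the 300, start-proximal intervals had a median rank of 173.5 in replicate 1 and start-distal ones 127. In replicate 2 the medians were 194.5 and 126, and in replicate 3 they were 111 and 222. Start-proximal intervals thus had the higher rank numbers, so the weaker signal, in replicates 1 and 2 and the lower ones in replicate 3. Proximal minus distal differences were 46.5, 68.5 and -111 ranks in replicates 1, 2 and 3, and 8, 25 and -294 when the 300 were ranked without replicate 3. Without replicate 1 they were 43.5, 91.5 and -72.5, and without replicate 2 they were 31.5, 84.5 and -63.5. Of the intervals ranked in the first 50 of replicates 1, 2 and 3, 23, 21 and 35 were start-proximal and 27, 29 and 15 start-distal. Down the ranking itself no trend appeared: 30, 19, 29, 25, 17 and 26 of each successive 50 intervals were start-proximal.

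Start-proximal summits of the 300 sat farther from the start. Their median offset was -122 bp, with negative values upstream, against -80 bp for the other start-proximal intervals. The strongest 300 of replicates 1, 2 and 3 had -125, -127 and -121 bp, against -80, -72 and -80 bp for the further intervals, and all 3 libraries showed the same direction (exact sign-flip p = 0.25). The share lying upstream was 80.1% in the 300 and 79.9% in the others. Coding starts on both strands lay within 500 bp for 37.7% of the 146 start-proximal intervals, against 33.2% of 3286 others. Summits of the 300 fell in intergenic sequence in 44.7%, against 46.7% of the others, in introns in 41.7 against 38.8%, and in 5′ UTRs in 7.67 against 8.66%. Coding sequence held 0.333% of the 300 and 1.43% of the others.

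Strong intervals were also more often wide. More than 500 bp were covered by 37% of the 300 and by 1.99% of the other IDR intervals, and several summits were listed in 17.7 against 1.37%. The median width was nonetheless 418 bp in the 300 and 416 bp in the others. Width and signal come from the same caller, so these shares describe the choice. They also differed by library, since 43.7, 36 and 5.67% of the strongest 300 of replicates 1, 2 and 3 exceeded 500 bp, against 1.66, 0.835 and 0.202% of the further intervals. The widest interval, 1909 bp with 4 summits (rank 246), ranked 156, 101 and 1928 in replicates 1, 2 and 3. It was intergenic, 5768 bp from the nearest start, that of *CG13334*. An interval of 1753 bp in an intron of *ush*, whose zinc-finger product binds GATA factors, held 3 summits and ranked 30, 38 and 247 (rank 60).

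**Figure D2:**
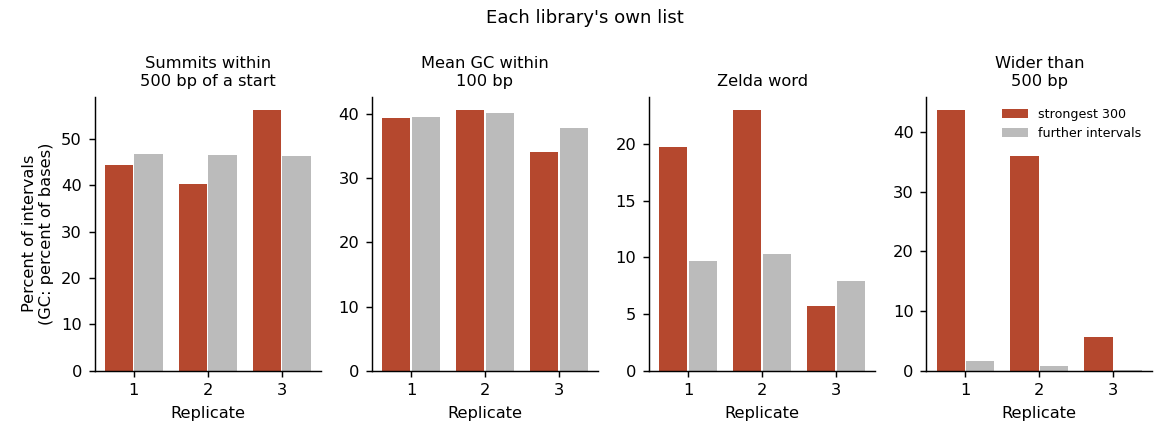
Share of intervals with a start within 500 bp, mean GC content, share with the Zelda word and share wider than 500 bp, in percent, for each replicate's own strongest 300 intervals (red) and its further intervals down to the size of the IDR set (grey). In the start, GC and Zelda panels the red bar of replicate 3 stands on the other side of its grey bar from those of replicate 2; in replicate 1 the GC bars are 39.4 and 39.6%.

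The 300 were divided by whether an interval ranked better in replicate 3 than on average in replicates 1 and 2. This division was made after the pattern of ranks had been seen and is given without a test. By it, 185 were led by replicate 3 and 115 by replicates 1 and 2, the last number including *lncRNA:CR44737*. Intervals led by replicate 3 had median ranks of 200, 221 and 98 in replicates 1, 2 and 3, and those led by replicates 1 and 2 had 104, 95.5 and 456.

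The classes stood apart in placement, width and base composition, and in several words given below. In some other features they were close. A start lay within 500 bp of 65.4% of the intervals led by replicate 3, and of 21.7% of those led by replicates 1 and 2. The median distance to a start was 200 bp in those led by replicate 3 and 2710 bp in those led by replicates 1 and 2. Intervals led by replicate 3 exceeded 500 bp in 8.11%, and those led by replicates 1 and 2 in 83.5%. Width comes from the same caller as the ranks. GC content within 100 bp of the summit averaged 32.7% where replicate 3 led and 45.6% where replicates 1 and 2 led. Arm X held 14.6% of the intervals led by replicate 3 and 5.22% of those led by replicates 1 and 2. Shares in introns were 41.6 where replicate 3 led and 41.7% where replicates 1 and 2 led, in intergenic sequence 45.4 and 43.5%, and on arm 3R 25.4 and 26.1%. TAATTA was present in 23.8 and 21.7%, the GATA word AGATAA in 12.4 and 12.2% and the Caudal word in 27 and 24.3%. The same division of the other 6943 IDR intervals gave smaller gaps, with 51.6 and 41.6% near a start and GC contents of 36.2 and 43%. Base composition and library therefore moved together, and their part in the ranks was not tested.

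**Figure D3:**
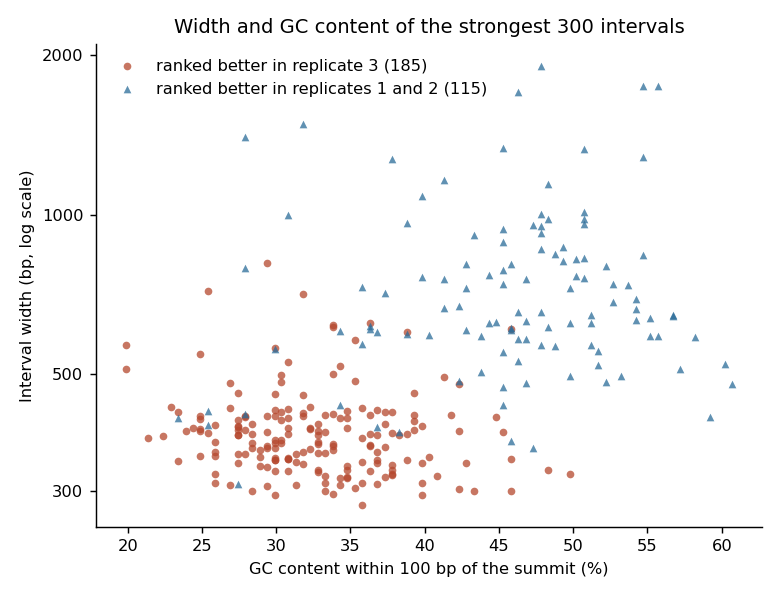
Interval width in bp (log axis) against GC content within 100 bp of the summit in percent, one point per interval, for the 185 intervals that ranked better in replicate 3 (circles) and the 115 that ranked better in replicates 1 and 2 (triangles). Circles gather at low GC content below 500 bp and triangles at higher GC content and greater width, with some overlap.

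The homeodomain core TAATTA was found within 100 bp of the summit in 69 of the 300 intervals (23%), against 18.4% of the other IDR intervals. In windows 1000 bp away its share was 9.33% beside the 300 and 12% beside the others. The strongest 300 of replicates 1, 2 and 3 had it in 21.7, 21 and 22.7%, against 18.9, 17.8 and 18.2% of the further intervals. That is a mean difference of 3.51 ± 0.883 percentage points (SD, n = 3; exact sign-flip p = 0.25, adjusted p = 0.531 over 17 words). The excess lay at starts: 29.5% of start-proximal intervals of the 300 had the word, against 19.1% of other start-proximal ones, while distal ones had 16.9 against 17.8%. TAAATT, the same bases in another order, also stood at 38 against 33.5%, with differences of -0.635, 1 and 9.51 percentage points in replicates 1, 2 and 3. A gap of like size was thus seen for a word that is no homeodomain core. The core reads the same on both strands, while the control word has a different form on either strand. Their shares are therefore not comparable in level, and gaps of like size need not mean a like excess. The TAAATT gap lay at starts too, with 48.6 against 38.7% of start-proximal intervals and 27.9 against 28.8% of distal ones. In the 300, 68.2% of the TAATTA words lay within 50 bp of the summit, against 55.6% in the others, and TAAATT gave 65.5 against 51.6%.

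The Zelda word CAGGTA occurred in 45 of the 300 (15%), against 9.68% of the others, and in 4 against 5.17% of the windows 1000 bp away. Libraries disagreed on it. The strongest 300 of replicates 1 and 2 had it in 19.7 and 23%, against 9.71 and 10.3% of their further intervals, while replicate 3 had it in 5.67 against 7.92%. The mean difference was 6.81 ± 7.97 percentage points (SD, n = 3; exact sign-flip p = 0.5, adjusted p = 0.654). Ranked without replicate 3, the 300 were 11.2 percentage points above the others, and without replicate 1 or replicate 2 they were at -0.59 and -1.29. Ranked by the worst library rank, they were at -1.63. In the 300, the word was present in 2.16% of the intervals led by replicate 3 and in 35.7% of those led by replicates 1 and 2. The longer CAGGTAG gave 0.541 and 20% in these classes. CGAGTA, the bases of CAGGTA in another order, gave 2.7 and 7.83% in them. Its share was 4.67% in all 300 and 4.71% in the others. The same division of the other IDR intervals gave CAGGTA in 5.15 and 15.8%.

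**Figure D4:**
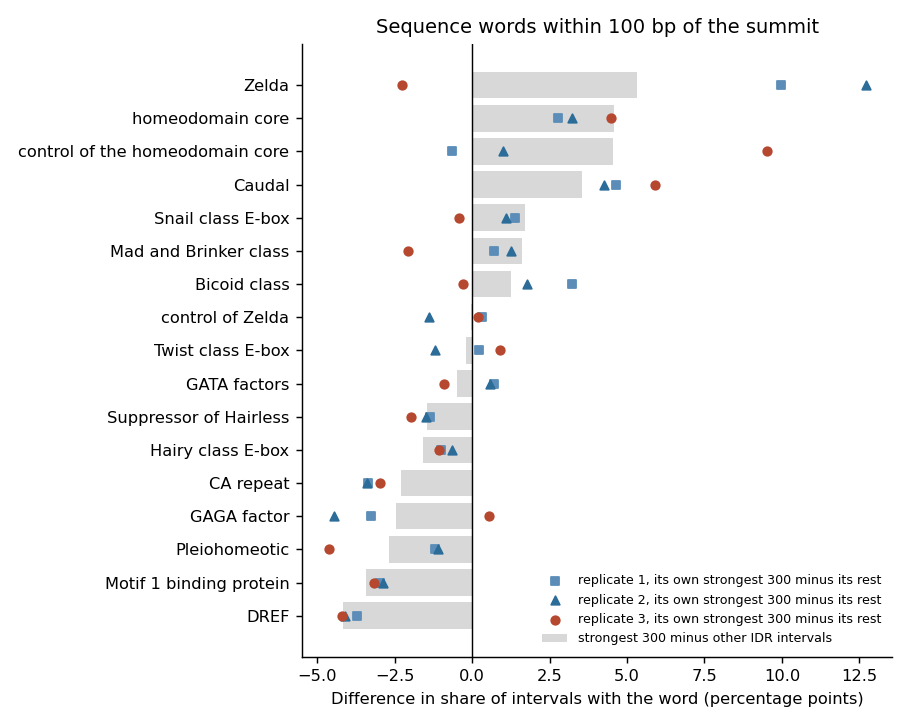
Share of the 300 intervals with each sequence word within 100 bp of the summit minus the share of other IDR intervals, in percentage points (grey bars), with the same difference within each replicate's own list (symbols); rows are named by the factor class that recognises the word. The symbols of all 3 replicates lie right of zero for the homeodomain core and Caudal words. They lie left of it for DREF, Motif 1 binding protein, Pleiohomeotic, Hairy class, Suppressor of Hairless and CA repeat words. The Zelda symbols lie on both sides.

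Words of broadly active promoters were rarer in the 300, and so were some other words. The DREF word TATCGATA occurred in 4 of them (1.33%), against 5.52% of the others, with 1.33, 0.667 and 1.33% in the strongest 300 of replicates 1, 2 and 3 against 5.04, 4.75 and 5.55% in the further intervals. GGTCACAC, the word of Motif 1 binding protein, was found in 2 of the 300 (0.667%), against 4.08% of the others. Both gaps had 1 direction in all 3 libraries and the smallest p the exact sign-flip test allows, 0.25 (adjusted p = 0.531). The same held for the CA repeat CACACAC (6 against 8.28%) and the Suppressor of Hairless word GTGGGAA (1.33 against 2.79%). It also held for the Hairy class word CACGTG (1 against 2.58%) and the Pleiohomeotic word GCCATT (10.7 against 13.4%). The gaps of the DREF and Motif 1 binding protein words lay at starts. There the DREF word was present in 2.74% of the 300 and 11.2% of the others, and GGTCACAC in 0.685 and 7.94%. The Caudal word TTTATG was at 26 against 22.5% and was higher in all 3 libraries, with a mean difference of 4.94 ± 0.857 percentage points (SD, n = 3; exact sign-flip p = 0.25, adjusted p = 0.531). GATA factor (AGATAA), Twist class (CATATG) and Bicoid class words differed by less than 1 SD of the library differences.

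Words chosen after counting all those of the 300 separated the classes further, and are a description. Of the words given here, only the homeodomain core reads the same on both strands. Each other word has a different form on either strand, which gives it more ways to occur. Shares are therefore to be read between classes for the same word, and not against the share of the core. TAATGA, another word with a TAAT core, was present in 28% of the 300 and 16.6% of the others. It stood in 18.4% of the intervals led by replicate 3 and in 43.5% of those led by replicates 1 and 2. Of the 90 distal intervals led by replicates 1 and 2, 51.1% had TAATGA, 34.4% CAGGTA and 13.3% TAATTA. The 25 start-proximal intervals led by replicates 1 and 2 had TAATTA in 52% and CAGGTA in 40%. In the 121 start-proximal intervals led by replicate 3, TATTAA was present in 49.6%, TAATTA in 24.8% and CAGGTA in 3.31%. Their mean GC content was 32.2%. Over all 185 intervals led by replicate 3, TATTAA was present in 48.6% and the rearranged TAAATT in 49.2%. Over the 115 led by replicates 1 and 2 these shares were 6.96 and 20%. The same division of the other IDR intervals gave TATTAA in 31.8 and 16.6%. CTACGCC occurred in 14 of the 300 (4.67%), against 0.951% of the others, and all 14 were led by replicate 3. All but the one at *CG9663* lay within 237 bp of a start, among them those at *CHMP2B*, *Ugalt*, *mRpL23* and *Lamtor3*.

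Of 13945 protein-coding genes, 480 (3.44%) had 1 of the 300 inside the gene or up to 2 kb outside it, and 46.8% had any IDR interval. A gene is said here to hold an interval in this sense, which may be nearer to another gene's start. 467 genes held 1, 12 held 2, and *CG42342* held 3, which was named after its value was seen. 138 intervals lay in the territory of 2 or more genes and 41 in none. Gene lists were read against the 3.44% of all genes and without a test of the list. Of the genes with any IDR interval, 7.35% held 1 of the 300. Lists in which most genes had an IDR interval are to be read beside that share too.

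The dorsal ectoderm and amnioserosa list had the greatest share of the 28 lists, 8 of 18 genes (44.4%), and all 18 had some IDR interval. *egr* was at rank 7 and *ush* at rank 16, although the *ush* interval was nearest to a start of *cbt* and had library ranks of 21, 25 and 17. *pnr*, the gene of a dorsally expressed GATA factor, held an intronic interval of 819 bp at rank 36, with library ranks of 19, 15 and 255. *Ance*, a peptidase gene, was at rank 102 through an interval nearest to *Smg5* that ranked 270, 188 and 43. *cv-2*, which encodes a BMP-binding protein, followed at rank 167 with library ranks of 109, 97 and 618. The homeobox gene *C15* was at rank 206, with library ranks of 124, 133 and 765. *Doc2* was at rank 178, ranked 108 and 84 in replicates 1 and 2. *zen* itself was at rank 299, with library ranks of 252, 170 and 755. The strongest interval was led by replicates 1 and 2 at 6 of the 8 genes and by replicate 3 at *ush* and *Ance*. Ranked without replicate 1 or without replicate 2 the list had 5 genes, and without replicate 3 it had 9. Counting only intervals within 1000 bp of a start of the gene left 1 of the 18, while the count over all genes was 235 in place of 480.

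Polycomb and trithorax genes, which encode chromatin regulators that keep Hox genes off or on, held intervals at 8 of 24 (33.3%). At all 8 the strongest interval was led by replicate 3, against 74% over the 480 genes. The ranks were 4 for *ash1*, 5 for *ph-p*, 28 for *Pc*, 62 for *Trl*, 99 for *phol*, 163 for *brm*, 210 for *E(z)* and 243 for *ph-d*. At *ash1*, *Pc* and *phol* the summit was nearest to the start of a neighbour (*CG14100*, *CG11309* and *CG3552*). At *brm* it lay 120 bp upstream of the gene's own start and ranked 198, 356 and 98.

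The list drawn up as adhesion and junction had 8 of 26 (30.8%). This count includes *px*, named above as a wing vein patterning gene. The highest ranks were at *Ama*, *px* and *bbg*. *Nrt*, a neurotactin gene, was at rank 98 and *baz*, a polarity scaffold gene, at rank 157. Pair-rule genes, which divide the embryo into segments, had 4 of 12 (33.3%). The interval 311 bp upstream of *ftz* was at rank 53 with library ranks of 32, 18 and 294, and *opa* at rank 116 ranked 88, 73 and 337. *Ten-m* (rank 158) was likewise led by replicates 1 and 2, and *slp1* (rank 172) by replicate 3. The Notch and Enhancer of split list had 4 of 14 (28.6%): *E(spl)m5-HLH*, *E(spl)m7-HLH*, *Tom* and *E(spl)mdelta-HLH*. Of the Hox list 3 of 11 (27.3%) held an interval, *Scr* at rank 89, *abd-A* at rank 128 and *Antp* at rank 186, all in introns. JAK-STAT had 2 of 9 genes, *Ptp61F* and *Socs36E*, and the BMP pathway had 4 of 20, *shn*, *cv-2*, *Med* and *gbb*.

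Mesoderm genes held intervals at 3 of 16, *Mef2* (rank 66), *zfh1* (rank 146) and *slp1*. All were led by replicate 3, against 74% over the 480 genes. The cellularization and early zygotic list had 3 of 16: *Z600*, a mitotic inhibitor gene, at rank 40, *spri* at rank 277, and *zld*, which encodes Zelda, at rank 296 with library ranks of 197, 203 and 773. Segment polarity genes had 2 of 17, *fz* and *nkd*, and gap and head genes 1 of 17, *slp1*. None of the 16 neurogenic ectoderm genes and none of the 16 EGF and FGF signalling genes held one of the 300, although 14 and 15 of them had some IDR interval.

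Genes of general cell functions fell on both sides of the background. Ecdysone genes had 3 of 19 (*ImpL2*, *Hr4*, *Hr3*) and heat shock genes 3 of 16 (*Hsp83*, with *Hsp23* and *Hsp27* through 1 shared interval). Cell cycle genes had 2 of 20, *CycB* and *E2f1*, and germ plasm genes 1 of 13, also *CycB*. Mitochondrial ribosomal protein genes had 5 of 73 (6.85%), *mRpS10*, *mRpL41*, *mRpS23*, *mRpL23* and *mRpS2*. All were led by replicate 3, against 74% over the 480 genes. Cytosolic ribosomal protein genes had 2 of 88 (2.27%), while 86.4% had some IDR interval. Proteasome genes had 2 of 48 (4.17%), *Rpn5* and *Rpn12R*. Hemocyte genes had 1 of 16, *ush*. Muscle structure, vision, antimicrobial peptide, odorant and gustatory receptor, cuticle protein and histone lists had none.

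**Figure D5:**
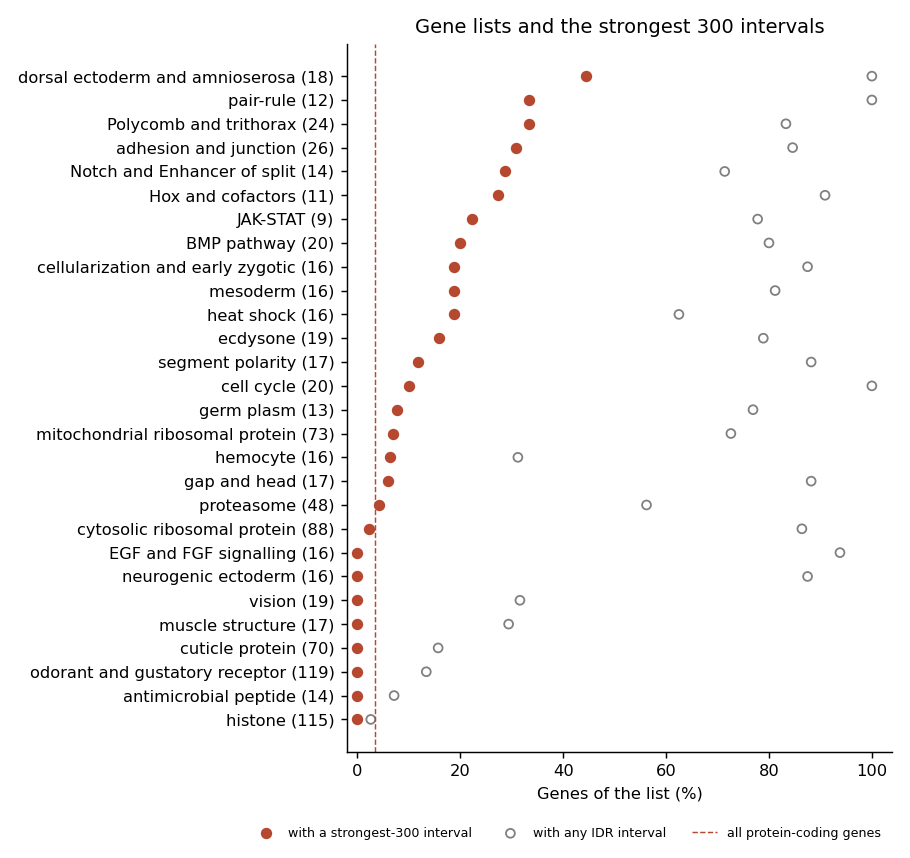
Share of genes in each list, with the number of genes in parentheses, that had 1 of the 300 intervals (filled) or any IDR interval (open) inside the gene or up to 2 kb outside it; the dashed line is the 3.44% of all protein-coding genes. The dorsal list stands at 44.4%, and the cytosolic ribosomal protein list at 2.27% although most of its genes had some IDR interval.

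Gene lists were also set against the division of the 300, in which 185 (61.7%) were led by replicate 3. Of the 480 genes with 1 of the 300, 355 (74%) had a strongest interval led by replicate 3 and 125 one led by replicates 1 and 2. Over 8 embryo patterning lists (dorsal, Hox, pair-rule, mesoderm, BMP, segment polarity, neurogenic, and gap and head), 22 genes held 1 of the 300, and the strongest interval was led by replicate 3 at 10 and by replicates 1 and 2 at 12. Over 5 housekeeping and stress lists (cytosolic and mitochondrial ribosomal protein, proteasome, cell cycle and heat shock), 14 genes did, with 12 led by replicate 3 and 2 by replicates 1 and 2. The lists and the division were both chosen with results of these data known, so the counts are a description.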

How the data were processed

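Peak lists of 3 libraries and an IDR set, on the dm6 build, were deposited by the authors. The file notes deposited with them say that peaks were called against control alignments; neither caller nor aligner is named in the sources used. Signal values, a score that the authors deposited, were used only to rank intervals within a list. The −log10 q-value deposited by the authors was not tested. The IDR set held 7405 summits in 7243 intervals, and each library about 30000 summits. Depth is unknown, and its effect on precision cannot be given.

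The strongest summit of an interval stood for it. Placement used Ensembl release 115, without transposable-element entries, a choice made after the data were seen. Words on both strands were counted up to 100 bp from each summit, overlaps included. Where a word reads the same on both strands, it was not counted again on the other strand. Library comparisons set the strongest 300 intervals of a library's list against its further intervals down to the size of the IDR set, by an exact two-sided sign-flip permutation test over 3 differences, with Benjamini-Hochberg adjustment over 17 words. This and the matching step were tested on simulated data. Alternatives were other numbers of intervals, start distances, territories and word windows, rankings by mean library rank without each library or by the worst library rank, and start-proximal or distal intervals alone. Printed sequences are from the NCBI Release 6 genome, the same build. Python 3.11.15, numpy 2.4.6 and pandas 2.3.3 were used.

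The 300 intervals, the 28 gene lists, the words and the tests were chosen with earlier results of these data known. 17 listed symbols had no match in the annotation and were left out. Named intervals are the 30 strongest, those at listed genes, at the border, the widest, those without a counterpart, and those whose library ranks differ most; of these only the ones that the text turns on are printed; 1 gene among them is not reported here. The printed windows are the strongest that hold each commoner word among those off arm 2R and free of annotated UTRs, which left out 58 intervals on that arm and 39 others and kept 203; those at listed genes and those for the added words were chosen after values were seen.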

Additional observations from a re-analysis of the deposited data

How the results depend on the processing

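The limits of these results are that 3 libraries form 1 group, that ranks come from a pooled list the libraries fed, and that depth is unknown. No paired analysis was possible because there is no second group to pair with, and the sign-flip test works within libraries. Re-ranked by mean library rank without replicates 1, 2 and 3, 85.7, 84.7 and 84% of the 300 were kept, and 82% by the worst library rank. The share near a start was 37% at 200 bp and 60% at 1000 bp. Genes holding an interval numbered 240 and 813 for the strongest 150 and 600, 746 with 5000 bp on either side, and 235 within 1000 bp of a start. The dorsal list then had 4 genes for the strongest 150, 5 by the worst rank and 1 within 1000 bp of a start, and 5 to 9 leaving out a library. Leaving out a library gave proximal minus distal rank differences of 8 to 43.5 in replicate 1, 25 to 91.5 in replicate 2 and -294 to -63.5 in replicate 3, TAATTA differences of 4.23 to 7.36, TATCGATA of -4.53 to -3.84 and GGTCACAC of -3.41 to -3.06 percentage points. TAATTA stood at 6.66 (worst rank), 3.7 (strongest 600), 5.47 (within 50 bp), 10.3 (start-proximal) and, reversed, -0.891 (start-distal). TATCGATA stood at -3.84, -3.83, -2.73, -8.43 and -0.438 under the same 5 settings. GGTCACAC stood at -3.2 (strongest 600), -1.67 (within 50 bp), -7.26 (start-proximal) and, reversed, 0.0478 (start-distal). CAGGTG reversed to -0.0328 (worst rank) and -0.0343 (strongest 600), and CACACAC to 0.491 (start-distal). The cause was not tested. Transposable-element starts, added after the data were seen, gave a share near a start of 49%.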

Other observations

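Most of the 300 intervals stood apart from each other, although 10% of them had another of the 300 within 5 kb. Of the other IDR intervals, 6.29% had 1 of the 300 within that distance. With 10 kb as the largest gap, 261 stood alone and 39 fell into 18 groups. Groups of 3, named by the genes with the nearest starts, lay at *Doc2* (ranks 297, 178 and 87 over 12502 bp), at *Tom* and *lncRNA:CR45978* (ranks 259, 25 and 236 over 12225 bp), and at *zen*, *bcd* and *Ama* (ranks 299, 227 and 1 over 9401 bp). Pairs were nearest to starts of the Enhancer of split genes *E(spl)m5-HLH* and *E(spl)m7-HLH*, of *slp1* and *slp2*, and of *elav* and *CG4293*. Other IDR intervals within 5 kb averaged 1.66 for the 300 and 1.29 for the remaining intervals. Arm X carried 11% of the 300 and 15.3% of the others, with 8, 8 and 14% in the strongest 300 of replicates 1, 2 and 3 against 15, 14.7 and 15.5% of the further intervals.

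Each library placed the same 152 intervals in its own strongest 300. Of these, 114 were led by replicate 3, against 71 of the 147 found in the strongest 300 of 1 or 2 libraries. The features of the 152 are to be read beside that difference. Of the 152, 57.9% lay within 500 bp of a start, 23% held TAATTA, 9.21% CAGGTA, 0.658% TATCGATA, 1.32% GGTCACAC and 7.24% CTACGCC. The 147 found in the strongest 300 of 1 or 2 libraries had 39.5% near a start, 23.1% with TAATTA, 21.1% with CAGGTA and 2.04% with CTACGCC. This last word lay at a median of 69.5 bp from the summit in the 300 and 55 bp in the other IDR intervals.

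Members whose library ranks differed most are named by the gene with the nearest start. For replicates 1 and 2 they were at *CG13334*, *Tom* (rank 236, ranked 135, 106 and 1437), *CG32982*, *lncRNA:CR46352* and *tinc*. Those for replicate 3 were at *grh* (rank 269, ranked 352, 764 and 135), which encodes an epidermal transcription factor, and at *pico*, *asRNA:CR45928*, *CG8360* and *CG10555*. The 5 led by replicate 3 spanned 300 to 500 bp, and the 5 led by replicates 1 and 2 spanned 626 to 1909 bp.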
